A study of Mus musculus with 2 samples.

Results

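Nuclear receptors are transcription factors, many of which are switched by small lipophilic ligands such as steroids, thyroid hormone, retinoids, oxysterols and fatty acids. The genes described here are 45 listed mouse genes of this family, out of 55536 annotated genes measured, with Nr5a1 and Nr0b1 left out by the rule that made the list. They were found by their symbols, which the second transcript tables pair with gene identifiers, and all 45 were matched.

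The samples were adrenal glands of female B6CASTF1/J mice, an F1 hybrid strain with a CAST parent, aged 25 days. There was 1 group with 2 total RNA libraries, replicate 1 and replicate 2, each made from 300 ng of RNA with a directional kit and ERCC spike-in RNAs. The labels leave unclear whether the libraries came from separate animals, because the biosample descriptions name different females while both libraries carry 1 donor and 1 library description. Each SD therefore covers only how far these libraries lie apart, in part perhaps for technical reasons, and with 1 group no test between groups exists.

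Expected counts, the estimated reads per gene, summed to 19366343 in replicate 1 and 33728646 in replicate 2, of which protein-coding genes of the nuclear genome, leaving out Lars2, held 36.3% and 66.1%. Deposited TPM values (abundance per length of transcript, scaled within a library) summed over these coding genes to 206815 in replicate 1 and 338304 in replicate 2, so the TPM of most genes was lower in replicate 1 for a reason of scale. A second scale, called coding TPM, gives these coding genes the same total in both libraries. The libraries differed beyond sampling noise: the chi-square statistic of their counts was 14.5 times its degrees of freedom over 14781 coding genes. All 6 markers of steroid-making cortex were detected, and their coding TPM summed to 44095 in replicate 1 and 49515 in replicate 2. Of 5 kidney markers none reached 1 TPM in both libraries, while the 7 liver markers are described below beside the receptors they touch.

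Most receptors share a DNA-binding domain with a pair of zinc fingers and a ligand-binding domain, and bind DNA alone, as pairs of the same receptor, or as partners of a retinoid X receptor. Steroid receptors wait in complexes with chaperones until they bind hormone, whereas several members recruit corepressors or coactivators directly on DNA. In the adrenal cortex the family is known for Nr5a1, which drives the steroidogenic genes, and for the NR4A genes, which are induced by corticotropin. Nr5a1 and Nr0b1, the receptors outside the list, stood at 134.84 and 3.43 TPM in replicate 1 and at 259.48 and 9.99 TPM in replicate 2.

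The P box, a short stretch at the end of the first zinc finger, contacts the bases of the half-site and separates receptors by the half-site they prefer. Coding sequence around it is shown for 5 members of different P-box type, with the 6 P-box codons in capitals. The sequences are GENCODE M21 transcripts on mm10, 42 bases each, read on the strand of the gene.
Nr1d1-201: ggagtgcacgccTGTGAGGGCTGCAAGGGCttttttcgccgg
Nr2f2-201: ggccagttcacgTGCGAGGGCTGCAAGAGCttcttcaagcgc
Esrra-201: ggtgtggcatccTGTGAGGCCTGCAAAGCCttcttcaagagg
Esr1-204: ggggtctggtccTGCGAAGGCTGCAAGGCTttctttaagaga
Nr3c2-203: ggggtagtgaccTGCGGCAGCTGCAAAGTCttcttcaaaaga
The Nr1d1 stretch lies on the minus strand between chr11:98771330-98771463 and spans an intron. The other stretches lie within 1 exon each, at chr7:70360015-70360056 on the minus strand for Nr2f2, chr19:6920073-6920114 on the minus strand for Esrra, chr10:4746756-4746797 on the plus strand for Esr1 and chr8:77085615-77085656 on the plus strand for Nr3c2.

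The zinc finger signature was found in the translated coding sequences of 44 of the 45 members, and not in Nr0b2, a receptor known to lack the DNA-binding domain. The translated P boxes fell into 9 classes. The class of Nr1d1 held 28 members, of which 23 were detected at 1 TPM or more in both libraries, and took 76.5% of the summed coding TPM of the 45 genes in replicate 1 and 79.3% in replicate 2. It includes the thyroid hormone, retinoid, PPAR, liver X, Rev-erb, ROR and NR4A receptors. The class of Nr2f2, with the 3 COUP-TF genes, took 12.9% in replicate 1 and 10.1% in replicate 2. The estrogen-related receptors Esrra, Esrrb and Esrrg took 3.13% and 3.50% in replicates 1 and 2. The class of Nr3c2, shared with Nr3c1 and Pgr, took 3.01% and 3.23%, and that of Esr1 and Esr2 took 0.748% and 0.660%. The remaining classes were Hnf4a with Hnf4g, and Nr2e1, Nr2e3 and Nr5a2 with 1 member each.

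Of the 45 members, 32 (71.1%) reached 1 TPM in both libraries, against 51.5% of the 22014 coding genes of that scale. The other 13 were under 1 TPM in both. A level of 10 TPM in both libraries was reached by 13 members, and the share of coding genes at that level was not counted. The median over all 45 members was 22.1 coding TPM in replicate 1 and 18.9 in replicate 2, against 6.04 and 6.16 for all those coding genes. Receptor transcripts were nevertheless a small part of the pool. The 45 genes together held 0.175% of coding TPM in replicate 1 and 0.177% in replicate 2, and the 5 highest held 39.6% and 41.7% of that. Only Nr1d1 was among the 1000 coding genes with the highest level in either library.

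**Figure D1:**
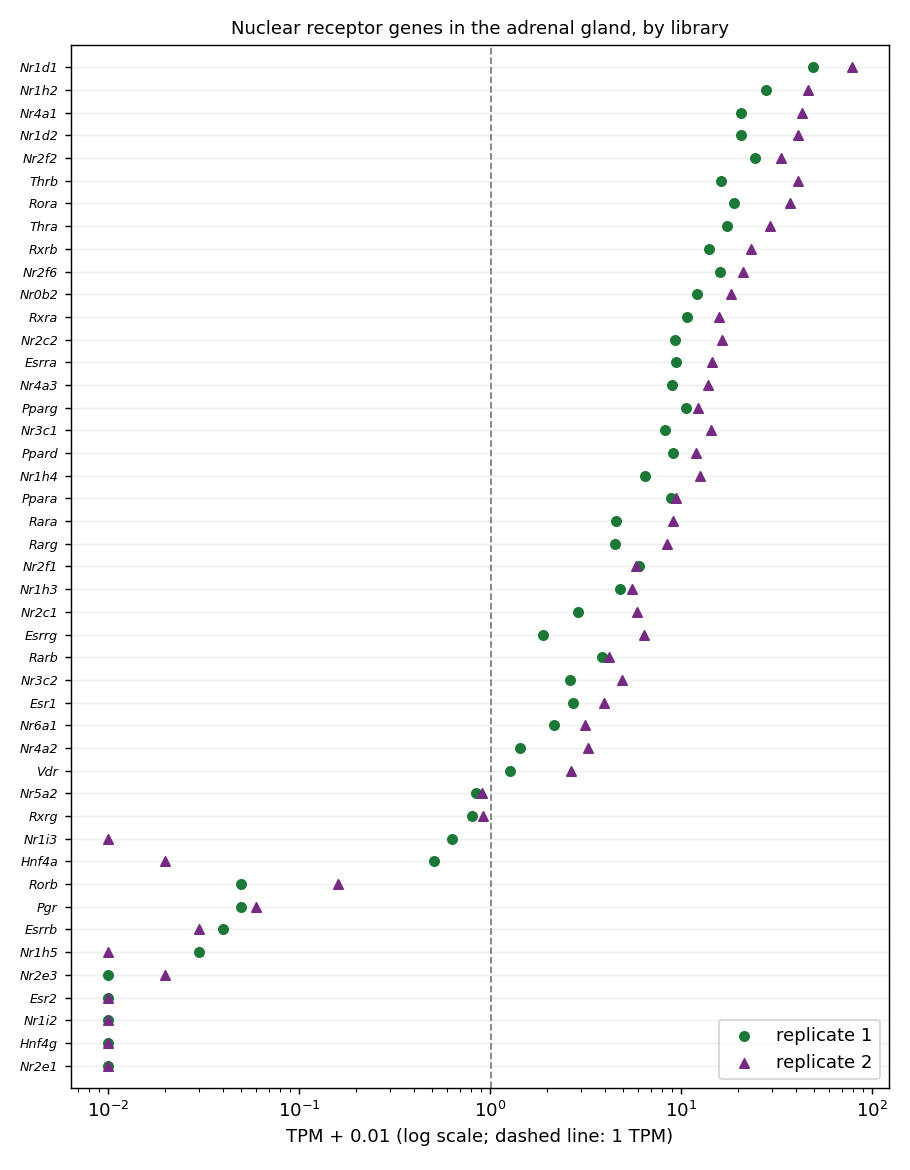
Level of each of the 45 nuclear receptor genes in replicate 1 (circles) and replicate 2 (triangles), as TPM plus 0.01 on a log axis, ordered by the mean of both libraries; the dashed line marks 1 TPM. The 32 members at or above the line in both libraries run from Nr1d1 at 49.2 and 78.4 TPM to Vdr at 1.27 and 2.64 TPM, and Hnf4a and Nr1i3 are the members whose points lie farthest apart.

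The order of the members was similar in both libraries, but close neighbours could not be ranked. Of the 31 neighbouring pairs among the 32 detected members, 13 kept their order in both libraries. The 10 highest members were the same genes in both libraries and in both quantifications. Across the 45 members Spearman's rho was 0.978 between the libraries and 0.986 between the quantifications, as a description over genes that share libraries. Deposited TPM was lower in replicate 1 for 31 of the 32 detected members, while coding TPM was lower for 17 and higher for 15. Since whole glands were measured, fewer cells of a type and less RNA per cell cannot be told apart at any level given here.

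The receptors of the circadian clock were the largest group. Rev-erb and ROR genes, 3 of 4 detected, made up 24.6% of the summed coding TPM of the family in replicate 1 and 26.2% in replicate 2. Nr1d1 (Rev-erb alpha, chr11:98767932-98775333), a haem-binding repressor of clock genes, was the highest member, with 49.2 TPM in replicate 1 and 78.4 TPM in replicate 2, or 63.8 ± 20.6 TPM (SD, n = 2). It ranked 723rd among coding genes. Its paralog Nr1d2 (Rev-erb beta, chr14:18204054-18239127) had 20.6 TPM in replicate 1 and 41.1 TPM in replicate 2. Rora (chr9:68653786-69388246), an activator that binds the same DNA elements as the Rev-erb proteins, had 19.1 and 37.5 TPM in replicates 1 and 2. Nr1d1 thus exceeded Nr1d2 by 2.39-fold in replicate 1 and 1.91-fold in replicate 2, a like ratio in libraries of unlike depth. Rorb, known mainly from brain and retina, was at 0.04 TPM in replicate 1 and 0.15 in replicate 2.

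The clock partners of these receptors were mostly detected, 11 of 12. Dbp, an output gene of the clock, had 59.3 TPM in replicate 1 and 146.11 in replicate 2, and Tef, of the same family, had 23.3 and 48.2 TPM. The period gene Per1 had 14.0 and 27.9 TPM in replicates 1 and 2, and Per3 had 6.24 and 18.3 TPM. Arntl, the clock activator that Rev-erb proteins repress, was lower in level than any of these, with 2.91 TPM in replicate 1 and 1.79 TPM in replicate 2. Between the libraries, ratios are given as log2 of replicate 1 over replicate 2, from counts scaled by TMM over all genes, for genes with a mean count of 100 or more. Arntl was the only one of 11 partners with such a ratio that lay at least 2-fold apart, as 1.28% of 11542 genes did, and at 1.48 it was higher in replicate 1. On the same scale Per3 was at -0.73, Dbp at -0.67 and Tef at -0.29, all lower in replicate 1, whereas Per1 was at 0.16. Of the 11 partners 7 were higher in replicate 1 and 4 lower, so they did not share a direction. Nr1d1 was at 0.07 and Nr1d2 at -0.19. The labels do not state the hour of collection.

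The lipid-sensing receptors were led by Nr1h2 (liver X receptor beta, chr7:44549616-44553951), an oxysterol receptor that controls cholesterol efflux. It was the second member by mean level, with 27.9 TPM in replicate 1 and 46.1 TPM in replicate 2. Nr1h3, liver X receptor alpha, had 4.77 and 5.51 TPM, so that the beta form exceeded the alpha form 5.85-fold in replicate 1 and 8.37-fold in replicate 2. The bile acid receptor Nr1h4 (FXR, chr10:89454234-89533585) had 6.51 TPM in replicate 1 and 12.6 TPM in replicate 2, above Nr1h3 in both libraries. Nr1h5, a lanosterol-binding relative in mice, had 1 count in replicate 1 and 0 in replicate 2. All 8 liver X receptor targets on the list were detected. They included the desaturase Scd1, with 409.88 TPM in replicate 1 and 359.25 TPM in replicate 2, its paralog Scd2 with 160.65 and 246.79 TPM, the cholesterol exporter Abca1 with 55.6 and 54.4 TPM, and the lipogenic regulator Srebf1 with 26.3 and 52.9 TPM.

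The 3 peroxisome proliferator-activated receptors, which sense fatty acids, had similar levels. Pparg, the adipocyte regulator, had 10.6 TPM in replicate 1 and 12.2 TPM in replicate 2. Ppard had 9.11 and 11.95 TPM, and Ppara, the regulator of fatty acid oxidation in liver, had 8.90 and 9.38 TPM. In the gene tables none of the 3 exceeded the next by more than 1.27-fold in either library. The second quantification put Pparg 1.55-fold and 1.31-fold above Ppard, and the ratio of Ppard to Ppara at 0.659 and 1.44, so the order of Ppard and Ppara was not settled. Of 14 PPAR targets 12 were detected, led by the fatty acid carrier Fabp4 with 393.42 and 521.64 TPM in replicates 1 and 2, the mitochondrial dehydrogenase Acadm with 155.22 and 225.94 TPM, Hadha with 101.60 and 155.79 TPM, and the carnitine transferase Cpt1a with 82.4 and 139.28 TPM. The targets Cyp4a10 and Cyp4a14, known from liver, were under 1 TPM in both libraries. The 5 adipocyte markers summed to 3648 coding TPM in replicate 1 and 2761 in replicate 2, and include Fabp4.

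The order of the thyroid hormone receptors was not settled. Thrb (chr14:17660261-18038090), known in the mouse adrenal from the X-zone, a transient inner cortical layer, had 16.2 TPM in replicate 1 and 41.2 TPM in replicate 2. Thra (chr11:98740638-98769006) had 17.3 and 29.5 TPM. The ratio of Thrb to Thra was therefore 0.936 in replicate 1 and 1.40 in replicate 2, while the second quantification put Thrb higher in both, at 1.34 and 1.52. The X-zone markers Akr1c18 and Pik3c2g summed to 7305 coding TPM in replicate 1 and 8110 in replicate 2. Of 10 genes of thyroid hormone handling and response, 4 were detected, among them the lipogenic gene Thrsp with 122.66 and 202.02 TPM in replicates 1 and 2, and the target Klf9 with 15.2 and 24.0 TPM. The activating deiodinase Dio2 had 6.07 TPM in replicate 1 and 0.80 TPM in replicate 2, a log2 ratio of 3.66. Ucp1, a marker of brown adipocytes, in which Dio2 is known to act, was at 893.60 coding TPM in replicate 1 and 486.51 in replicate 2, a log2 ratio of 0.91, and its part in the Dio2 value was not tested.

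Among receptors that partner or compete with others, Rxrb (chr17:34031812-34038399) and Rxra (chr2:27676440-27762957), common partners of many other members, had 14.0 and 10.8 TPM in replicate 1, and 23.4 and 15.7 TPM in replicate 2. Rxrg, the third form, stayed just under the threshold with 0.80 TPM in replicate 1 and 0.91 TPM in replicate 2. Rxrb exceeded Rxra in both libraries in the gene tables, but the second quantification put their ratio at 0.973 in replicate 1, so their order was not settled. Nr0b2 (SHP), which binds other receptors and represses them, was at 12.2 TPM in replicate 1 and 18.3 in replicate 2. The testicular receptors Nr2c2 and Nr2c1, orphan repressors, had 9.26 and 2.87 TPM in replicate 1, and 16.4 and 5.90 TPM in replicate 2.

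The retinoic acid receptors were lower in level. Rara had 4.58 TPM in replicate 1 and 9.11 TPM in replicate 2, Rarg 4.51 and 8.47 TPM, and Rarb 3.85 and 4.19 TPM. The ratio of Rara to Rarg was 1.02 in replicate 1 and 1.08 in replicate 2, so Rara and Rarg did not differ beyond the spread between libraries, whereas Rara exceeded Rarb 2.17-fold in replicate 2. Of 12 genes of retinoid handling and response, 6 were detected. The retinal dehydrogenases Aldh1a1 and Aldh1a2, which make retinoic acid, had 78.3 and 16.5 TPM in replicate 1, and 133.08 and 24.3 TPM in replicate 2, and the retinal reductase Dhrs3 had 17.4 and 36.6 TPM. Cyp26a1, a retinoic acid hydroxylase and known RAR target, was listed at 0 in both libraries. Its paralog Cyp26b1 had 0.97 TPM in replicate 1 and 1.37 in replicate 2, and Cyp26c1 had 0 and 0.04 TPM. Whether the retinoic acid receptors were active was not tested.

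The COUP-TF genes, orphan receptors of mesenchymal and vascular cells among others, were all detected. Nr2f2 (COUP-TFII, chr7:70351944-70366735) had 24.5 TPM in replicate 1 and 33.3 TPM in replicate 2, Nr2f6 15.9 and 21.3 TPM, and Nr2f1 6.06 and 5.78 TPM. Nr2f2 exceeded Nr2f6 by 1.54-fold and 1.57-fold and Nr2f1 by 4.05-fold and 5.76-fold in replicates 1 and 2. In the second quantification it exceeded Nr2f6 by 2.32-fold and 2.63-fold. Nr2f1 was the only detected member whose deposited TPM was not lower in replicate 1. Beside them, the 5 capsule and fibroblast markers summed to 420 coding TPM in replicate 1 and 281 in replicate 2.

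The NR4A genes are immediate-early genes, and cyclic AMP is known to induce them through response elements in their promoters. Nr4a1 (Nur77, chr15:101254269-101274795) was the third member by mean level in the gene tables, but had rank 7 in the second quantification. In the gene tables it had 20.8 TPM in replicate 1 and 43.2 TPM in replicate 2. Nr4a3 had 8.99 and 13.9 TPM, and Nr4a2 had 1.42 and 3.25 TPM. Nr4a1 exceeded Nr4a3 by 2.31-fold and 3.11-fold, and Nr4a2 by 14.6-fold and 13.3-fold, in replicates 1 and 2. In scaled counts all 3 were lower in replicate 1 with a 95% counting interval that left out equal levels, as were 22.8% of 11542 genes. The log2 ratios were -0.39 for Nr4a1 (interval -0.51 to -0.28), -0.55 for Nr4a2 (-0.96 to -0.19) and -0.30 for Nr4a3 (-0.44 to -0.16). In coding TPM Nr4a3 was not lower, at 43.5 in replicate 1 and 41.0 in replicate 2.

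Promoters of the 3 NR4A genes are shown because these members were counted lower together. They are RefSeq sequences of build GRCm38.p6, upstream of the annotated start and read on the strand of the gene. Capitals mark the cyclic AMP response element half-site TGACG on either strand (CGTCA on the other).
Nr4a1 (chr15:101266596-101266845, plus strand): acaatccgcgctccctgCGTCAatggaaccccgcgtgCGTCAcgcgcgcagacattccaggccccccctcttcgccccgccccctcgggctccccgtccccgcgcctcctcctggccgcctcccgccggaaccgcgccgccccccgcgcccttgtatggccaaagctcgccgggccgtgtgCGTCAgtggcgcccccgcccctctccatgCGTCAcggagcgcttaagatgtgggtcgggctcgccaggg
Nr4a2 (chr2:57124004-57124253, minus strand): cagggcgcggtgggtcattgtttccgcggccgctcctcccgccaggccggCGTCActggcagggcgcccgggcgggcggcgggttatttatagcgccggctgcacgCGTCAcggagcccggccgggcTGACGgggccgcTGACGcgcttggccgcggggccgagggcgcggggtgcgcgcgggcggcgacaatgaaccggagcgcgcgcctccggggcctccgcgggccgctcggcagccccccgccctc
Nr4a3 (chr4:48045055-48045152, plus strand): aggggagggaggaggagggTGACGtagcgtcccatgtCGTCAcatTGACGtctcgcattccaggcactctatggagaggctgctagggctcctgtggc
For Nr4a3 only the 98 bases before the first GENCODE exon are printed, with 3 half-sites. The Nr4a1 start of RefSeq lies inside the longer gene that GENCODE annotates. Each of the 3 promoters held 4 half-sites within its 250 bases upstream, counted on both strands. The fourth half-site of Nr4a3 lies past the start of its first GENCODE exon. Of 32851 promoters of that length, 17.8% held at least 1, 0.688% at least 3 and 0.137% at least 4. Of the 63 promoters of the 42 members with an entry, only these 3 held at least 4. The motif was picked for what is known of these genes, and the cut of 4 equals the number they hold. These shares are therefore a description and not a test. A match is a string of letters, not a shown binding site.

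The receptors of steroid hormones themselves stood low or in the middle of the list. Nr3c1, the glucocorticoid receptor, had 8.21 TPM in replicate 1 and 14.4 TPM in replicate 2. Nr3c2 (chr8:76899442-77245012), the mineralocorticoid receptor, had 2.63 and 4.92 TPM, so that Nr3c1 exceeded it 3.12-fold in replicate 1 and 2.93-fold in replicate 2. Counts were 659 for Nr3c1 and 88 for Nr3c2 in replicate 1, and 2080 and 624 in replicate 2. The like TPM ratios depend on the length used for Nr3c2, which differed between the libraries as described below. Esr1 (chr10:4611593-5005614), estrogen receptor alpha, had 2.70 TPM in replicate 1 and 3.96 TPM in replicate 2. The progesterone receptor Pgr had 0.04 and 0.05 TPM, from 3 and 8 counts in replicates 1 and 2. Esr2, estrogen receptor beta, was listed at 0 in both gene tables, and the second quantification gave it 1.41 estimated counts in replicate 1 and 9.92 in replicate 2.

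The apparatus around steroid receptors was detected in full. All 10 chaperone genes of the receptor complex reached 1 TPM in both libraries, led by Hsp90ab1 with 499.67 and 639.06 TPM in replicates 1 and 2, Hspa8 with 571.80 and 459.56 TPM, Hsp90aa1 with 150.45 and 152.31 TPM, and the co-chaperone Dnaja1 with 89.2 and 77.6 TPM. All 8 glucocorticoid receptor targets on the list were also detected. Sgk1, a kinase induced by corticosteroids, had 22.7 TPM in replicate 1 and 39.6 TPM in replicate 2, Tsc22d3 (GILZ) had 22.3 and 38.2 TPM, Per1 14.0 and 27.9 TPM, and Klf9 15.2 and 24.0 TPM. None of the chaperone or target genes lay 2-fold apart between the libraries.

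The estrogen-related receptors are orphans that regulate genes of mitochondrial energy metabolism. Esrra (chr19:6910977-6921813) had 9.38 TPM in replicate 1 and 14.6 in replicate 2, and Esrrg (chr1:187608791-188214885) had 1.89 and 6.40 TPM. Esrrb, known from stem cells and the inner ear, had 1 and 3 counts in replicates 1 and 2. Esrra exceeded Esr1 by 3.47-fold and 3.68-fold, but exceeded Esrrg 4.96-fold in replicate 1 and only 2.28-fold in replicate 2. The coactivator Ppargc1a, a known partner of Esrra, was at 1.94 and 1.58 TPM in replicates 1 and 2. It was the only one of 14 coactivators at least 2-fold apart in scaled counts, with a log2 ratio of 1.78, higher in replicate 1.

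Coregulators that many receptors share had higher median levels than the receptors. The median was 11.6 TPM in replicate 1 and 18.5 in replicate 2 over 14 coactivators, and 14.3 and 25.9 TPM over 10 corepressors, beside 4.58 and 6.40 TPM over the 45 receptors. All 14 coactivators were detected, led by Ncoa4 with 31.6 and 63.6 TPM in replicates 1 and 2, the acetyltransferases Ep300 with 16.6 and 29.4 TPM and Kat2b with 13.4 and 32.0 TPM, and the Mediator subunit Med1 with 15.8 and 28.4 TPM. All 10 corepressors were detected too. Ncor1 had 56.2 TPM in replicate 1 and 79.3 in replicate 2, and exceeded every one of the 45 receptors in each library. Tbl1xr1, a subunit of corepressor complexes, had 13.9 and 40.4 TPM, and the ligand-dependent corepressor Nrip1 had 16.2 and 32.0 TPM. Among the corepressors none was 2-fold apart.

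The remaining detected members were low. Nr6a1 (GCNF), a germ cell repressor, had 2.15 TPM in replicate 1 and 3.14 in replicate 2, and the vitamin D receptor Vdr had 1.27 and 2.64 TPM. Nr5a2 (LRH-1), the closest relative of Nr5a1 and known from liver and ovary, was just below the threshold at 0.84 and 0.90 TPM. The members nearest the threshold of 1 TPM in the gene tables were thus Vdr and Nr4a2 above it, and Nr5a2 and Rxrg below it. The second quantification put Vdr higher, at 4.67 TPM in replicate 1 and 7.99 in replicate 2. Nr2e3, a retinal receptor, had 0 and 1 counts in replicates 1 and 2. Nr2e1 (TLX), known from neural stem cells, Hnf4g, a relative of Hnf4a, and Nr1i2 (PXR), a xenobiotic receptor, were listed at 0 in both libraries.

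Hnf4a and Nr1i3 were found almost only in replicate 1. Hnf4a, a master regulator of hepatocytes, had 35 counts in replicate 1 and 1 in replicate 2. Nr1i3 (CAR), a xenobiotic receptor of liver, had 18 counts in replicate 1 and 0 in replicate 2, at least 19.3-fold higher in replicate 1 when 3 counts are taken as the floor in replicate 2. Nr1i3 overlaps Tomm40l on the opposite strand over 4691 bases, and its leading transcript in replicate 1 was of the retained intron type. Liver markers moved in the same direction. Alb had 141.27 TPM in replicate 1 and 3.47 TPM in replicate 2, Apoa1 had 24.9 and 0.17 TPM, and the 7 markers summed to 982 coding TPM in replicate 1 and 11.4 in replicate 2. All 6 liver markers with a mean count of 100 or more were over 2-fold higher in replicate 1, with a median log2 ratio of 7.80. The part of liver RNA in the Hnf4a and Nr1i3 counts was not tested.

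Other receptors known from liver differed far less between the libraries than those markers. Coding TPM of Nr0b2 was 58.9 in replicate 1 and 54.2 in replicate 2, and that of Nr1h4 was 31.5 and 37.1. Ppara was at 43.0 and 27.7 coding TPM, and Nr1h3 at 23.1 and 16.3. The part of liver RNA in these values was not tested. Of 10 target genes of the xenobiotic, bile acid and vitamin D receptors, only Cyp2b10 was detected in both libraries, with 1.88 TPM in replicate 1 and 1.40 TPM in replicate 2. Cyp3a11 had 3.85 and 0.06 TPM. The bile salt exporter Abcb11 had 0.59 and 0.03 TPM. The FXR targets Fgf15, Slc51a and Slc51b, named after their values were seen, had at most 1 count in either library. In replicates 1 and 2 Nr1h4 itself had 202 and 751 counts, and Nr0b2 had 206 and 595. Whether FXR was active was not tested.

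**Figure D2:**
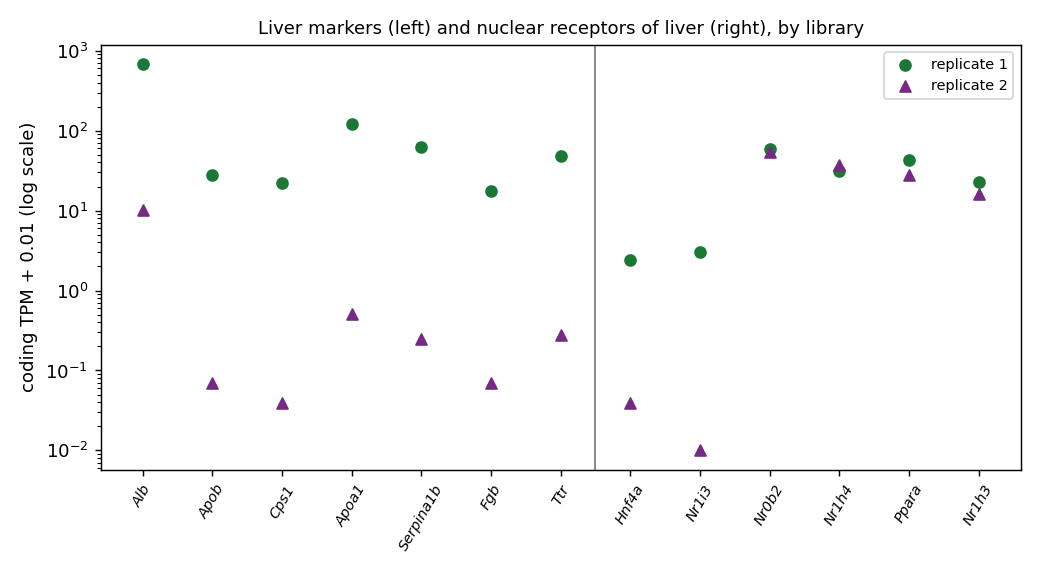
Coding TPM plus 0.01 on a log axis in replicate 1 (circles) and replicate 2 (triangles), for the 7 liver markers left of the line and 6 receptors known from liver right of it. The markers, Hnf4a and Nr1i3 are far higher in replicate 1, while Nr0b2 (58.9 and 54.2), Nr1h4 (31.5 and 37.1), Ppara (43.0 and 27.7) and Nr1h3 (23.1 and 16.3) lie far closer together.

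Between the libraries the median size of the difference was close for the members and for all genes. Of the 32 members that passed the minimum mean count of 100, 1 lay at least 2-fold apart, against 1.28% of 11542 genes. The median ratio was -0.03 for the members and -0.02 for all genes, and the median size of the ratio, regardless of sign, was 0.18 and 0.16. The members ran from -1.13 for Nr3c2 to 0.52 for Ppara, with 18 lower and 14 higher in replicate 1. For 18 of the 32 members the counting interval left out equal levels, 10 lower and 8 higher in replicate 1. That is a larger share than the 42% of 11542 genes, 22.8% lower and 19.2% higher. These intervals cover counting error only and narrow as counts rise, so such shares also depend on read depth.

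**Figure D3:**
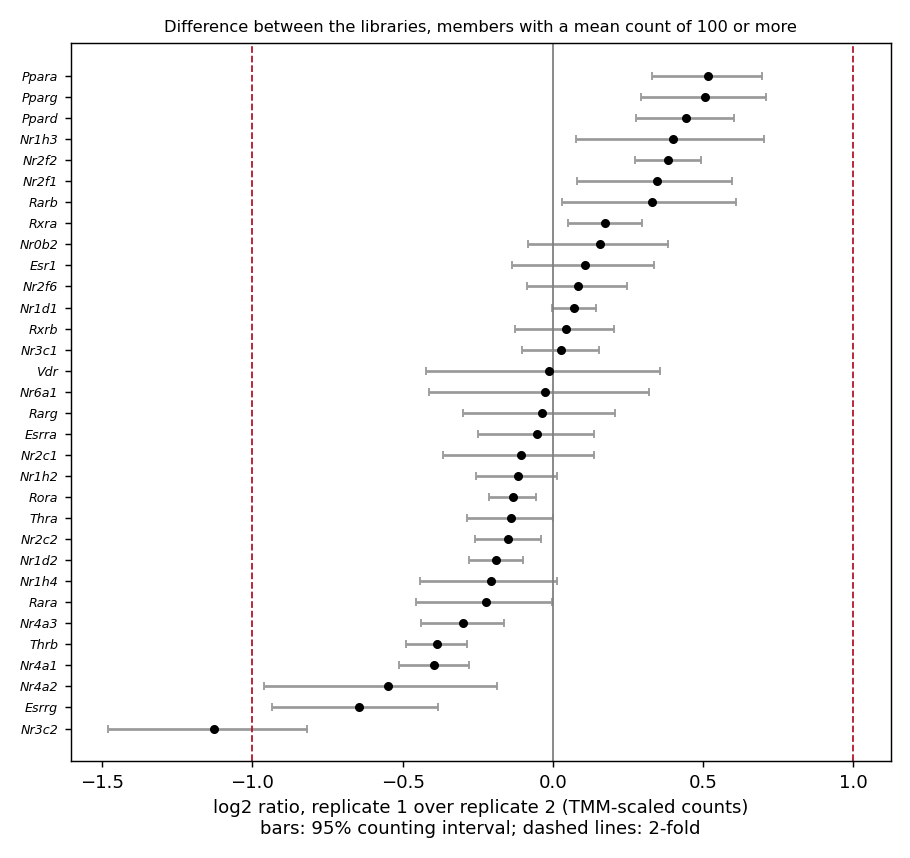
Log2 ratio of replicate 1 over replicate 2 in TMM-scaled counts for the 32 members with a mean count of 100 or more; bars are 95% counting intervals and dashed lines mark a 2-fold difference. The 3 PPAR genes lie at the upper end, between 0.44 and 0.52, and Nr3c2 alone lies beyond the lower dashed line, at -1.13.

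The 8 members counted higher in replicate 1 included the 3 PPAR genes. Ppara was at 0.52, Pparg at 0.51 and Ppard at 0.44, with Nr1h3 at 0.40, Nr2f2 at 0.38, Nr2f1 at 0.35, Rarb at 0.33 and Rxra at 0.17. Of the other lipid-sensing receptors Nr1h3 shared this direction. Nr1h2 was at -0.12 and Nr1h4 at -0.21, both with a counting interval that included equal levels. The 3 PPAR genes stayed higher in replicate 1 under spike-in scaling and were lower under total counts, which move the median of all genes to -0.91. All 12 PPAR targets with enough counts were also higher in replicate 1, with a median of 0.26, and 11 of 12 remained so when scaled by spike-in counts, but only 2 when scaled by total counts. Of these targets Pdk4, a kinase that restrains glucose oxidation, lay at least 2-fold apart, at 1.06. Adipocyte markers stood beside this at a median of 0.32, with 5 of 5 higher in replicate 1, while the 4 capsule and fibroblast markers with enough counts were split, with Col1a1 at 0.72, Col3a1 at 0.63, Pdgfra at 0.08 and Dcn at -0.12 (2 of 4 higher under spike-in scaling). Their part in the ratios of Pparg, its targets and Nr2f2 was not tested.

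The 10 members counted lower in replicate 1 were Nr3c2 at -1.13, Esrrg at -0.64, Nr4a2 at -0.55, Nr4a1 and Thrb at -0.39, Nr4a3 at -0.30, Rara at -0.22, Nr1d2 at -0.19, Nr2c2 at -0.15 and Rora at -0.13. Thrb had 1003 counts in replicate 1 and 4213 in replicate 2, and Esrrg had 131 and 662. X-zone markers lay beside Thrb at a median of -0.17. Chaperones went the other way, with 10 of 10 higher in replicate 1 and a median of 0.36 under TMM, 8 of 10 under spike-in scaling and 0 of 10 under total counts.

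For Nr3c2 the size of the difference depended on the measure. Its counts were 88 in replicate 1 and 624 in replicate 2, a ratio of -1.13 with an interval of -1.48 to -0.82. Its coding TPM was 12.7 in replicate 1 and 14.5 in replicate 2, a log2 ratio of -0.19. The gap lies in the effective length that the authors' quantification used for the gene, 2042 bases in replicate 1 and 4035 bases in replicate 2, which follows from the transcripts to which the reads were assigned. On coding TPM, Esrrg was the only one of the 32 members at least 2-fold apart, at a log2 ratio of -1.05, beside 1.18% of 10981 coding genes. That scale was applied to this count after the values were seen. The measure matters for Esrrg too. In scaled counts it was at -0.64, and its effective length was 4236 bases in replicate 1 and 3288 bases in replicate 2.

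The split of Nr3c2 between its transcripts differed between the libraries. In replicate 1 no transcript held more than 18.7% of its TPM, and the highest was Nr3c2-206, which is 612 bases long. In replicate 2 the full-length Nr3c2-203 held 39.0% and Nr3c2-201 held 24.6%, against 6.30% and 6.71% in replicate 1. Nr3c2-205, a processed transcript of 350 bases, held 16.7% in replicate 1 from 1.80 counts, and Nr3c2-208, of the nonsense-mediated decay type, held 16.9% and 16.2% in replicates 1 and 2. Nr3c2-202 and Nr3c2-207 held 14.2% and 15.6% in replicate 1 and were listed at 0 in replicate 2, and Nr3c2-204 held 4.95% and 10.5%. With 88 counts over 8 transcripts, the shares in replicate 1 rest on few reads each. Nr3c2-201 differs from Nr3c2-203 in coding sequence by an insert of 12 bases (4 codons) at chr8:77085667-77085678 that extends the exon of the first zinc finger, giving 984 and 980 codons.
Nr3c2-201, insert in capitals: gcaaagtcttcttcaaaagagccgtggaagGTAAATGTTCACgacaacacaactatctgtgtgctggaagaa
Nr3c2-203, same junction: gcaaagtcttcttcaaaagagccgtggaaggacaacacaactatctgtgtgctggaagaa
A form of this receptor with 4 extra residues between its zinc fingers is known from rats and humans.

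Nr3c1 and Esr1 were each spread over several coding transcripts. Nr3c1-203 held 56.0% of Nr3c1 TPM in replicate 1 and 39.7% in replicate 2, Nr3c1-204 held 14.2% and 24.5%, and Nr3c1-208, with an incomplete coding sequence of 488 codons, held 21% and 25.6%. In the second quantification the leading transcript was another, with Nr3c1-203 at 2.49% and 0.00792% and Nr3c1-204 at 49.5% and 42.0%. Nr3c1-203 and Nr3c1-204 both encode 792 codons. Esr1-204 held 51.9% in replicate 1 and 65.2% in replicate 2 and led in the second quantification too, at 42.9% and 65.8%. Esr1-203 held 25.3% and 11.2%, and Esr1-201 held 10.3% and 3.27%, all with 599 codons.

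Of the estrogen-related receptors, Esrra was simple and Esrrg was not. Esrra-201 held 74.5% of Esrra TPM in replicate 1 and 88.9% in replicate 2 and led in every table. Esrrg-201, with 458 codons, held 70.0% and 58.8% in the first quantification but 30.02% and 23.2% in the second. Esrrg-204, a short form of 450 bases, took 10.9% and 29.6% in replicates 1 and 2 in the first quantification, from 1.18 and 20.9 counts, and Esrrg-203 took 11.2% and 1.90%.

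Thra encodes a hormone-binding receptor and a longer form with another end that does not bind hormone, and these forms differ in coding sequence. Thra-202, with the 410 codons of the hormone-binding form alpha1, held 35.3% of Thra TPM in replicate 1 and 41.7% in replicate 2. Thra-201, with the 492 codons of the form alpha2, held 28.0% and 35.7%. The second quantification gave 36.9% and 37.7% for Thra-202, and 29.3% and 31.6% for Thra-201. Thra-203, an incomplete coding transcript that ends within the alpha2 end, held 27.0% in replicate 1 and 11.3% in replicate 2. With it, the transcripts with alpha2 coding sequence held 55.0% and 47.0% in the first quantification and 40.2% and 38.3% in the second, above Thra-202 in all 4 cases, so the order of the forms turns on how Thra-203 is counted. The coding sequences share their first 1111 bases and then part, with 119 own bases in Thra-202 (chr11:98764407-98764525) and 365 in Thra-201 (chr11:98768158-98768522). The junction is shown with 30 shared bases in lower case and 30 own bases in capitals.
Thra-202: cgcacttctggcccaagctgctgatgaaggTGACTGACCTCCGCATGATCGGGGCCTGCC
Thra-201: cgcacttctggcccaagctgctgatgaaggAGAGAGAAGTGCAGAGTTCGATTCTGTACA
All 365 own bases of Thra-201 lie inside Nr1d1, the highest receptor gene, which runs on the opposite strand, and 262 of them lie in exons of Nr1d1-201. None of the own bases of Thra-202 do. The kit was directional, but whether the quantification used strand is not given in the sources used here, so reads of Nr1d1 and of the end of Thra-201 may not be told apart.

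**Figure D4:**
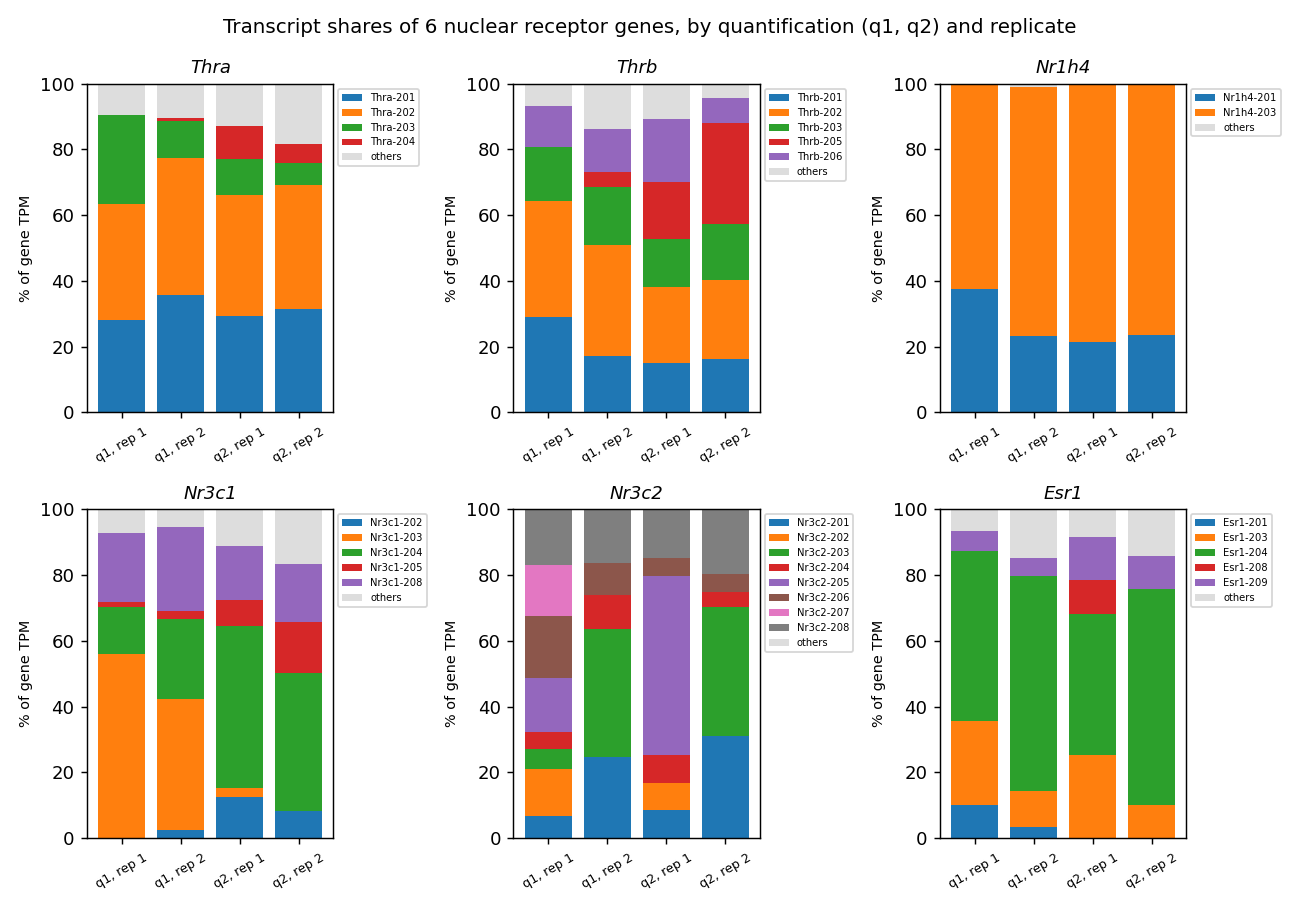
Share of the gene's TPM on each transcript of 10% or more in any column, for Thra, Thrb, Nr1h4, Nr3c1, Nr3c2 and Esr1, with the first (q1) and second (q2) quantification of replicates 1 and 2 as bars that add up to 100%. Thra, Nr1h4 and Esr1 keep their leading transcript in all 4 bars, whereas Nr3c1-203 falls to 2.49% and 0.00792% in the second quantification and Nr3c2 has a different make-up in replicate 1.

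Thrb-202, with 475 codons, held 35.2% of Thrb TPM in replicate 1 and 33.6% in replicate 2, and Thrb-201, with the 461 codons of the widely expressed form beta1, held 29.0% and 17.3%. Thrb-203, also with 461 codons, held 16.4% and 17.8%, and Thrb-206 held 12.5% and 13.1%. The second quantification gave Thrb-202 22.9% and 24.1%, Thrb-201 15.1% and 16.3%, and put Thrb-205, a form of 375 bases, highest in replicate 2 at 30.5%. Thrb-202 and Thrb-201 differ in their coding starts, of 325 and 283 own bases. The 5 transcripts with coding sequence in the start of Thrb-201, short and incomplete ones included, together held 57.9% and 60.5% in the first quantification and 72.6% and 71.5% in the second. The last 45 own bases are shown in capitals before the first 15 shared ones.
Thrb-202: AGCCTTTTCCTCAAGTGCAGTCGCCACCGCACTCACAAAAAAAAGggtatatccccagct
Thrb-201: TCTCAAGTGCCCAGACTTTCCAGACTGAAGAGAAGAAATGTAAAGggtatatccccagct
Of the 2204 bases of Thrb-202 that Thrb-201 lacks, 1531 lie after the stop codon. Reads there count for Thrb-202 without touching its own start, so its share is not a measure of that start alone.

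Among the other high members the split between transcripts was clear for some only. Nr1d1-201 held 94.5% of Nr1d1 TPM in replicate 1 and 94.6% in replicate 2, and Nr1d2-201 held 78.4% and 74.5% of Nr1d2. Rora-201, with 523 codons, held 41.2% and 36.1%, and Rora-202, with 467 codons, held 30.4% and 37.2%, so the leading Rora form changed between libraries in the first quantification. In the second, Rora-202 led in both, with 37.4% and 35.6%. Nr4a1-201 held 86.6% and 95.1% in the first quantification, while the second put 93.2% and 97.6% on Nr4a1-202. Nr2f2-201 held 41.8% and 37.9% beside the short Nr2f2-204 with 28.9% and 32.9%. Nr1h2 was spread over 18 transcripts, the highest at 19.8% in the first quantification.

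FXR and Pparg transcripts with different starts stood in contrast. Nr1h4-203, with 474 codons, held 62.4% of Nr1h4 TPM in replicate 1 and 75.7% in replicate 2, and 78.5% and 76.5% in the second quantification, ahead of Nr1h4-201 with 484 codons in all 4 cases. Pparg-201, with 505 codons, held 64.3% in replicate 1 and 37.4% in replicate 2, but 0% and 0.0181% in the second quantification. Pparg-204, with 475 codons, held 16.8% and 46.2% in the first and 50.9% and 24.8% in the second. The make-up of Pparg was therefore not settled by these tables.

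Over the 32 detected members the leading transcript was the same in both libraries for 25, beside 83.5% of 11333 detected coding genes. It was the same in both libraries and both quantifications for 14 members (43.8%), beside 61.7% of those coding genes. The detected members had a median of 6.5 annotated transcripts. Nr0b2 had 1 annotated transcript, and Nr0b2 and Nr1d1 were the members whose leading transcript held over 90% in both libraries.

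Thyroid hormone, Rev-erb and retinoic acid receptor genes lie together at a pair of loci. On chromosome 11 Thra (plus strand) overlaps Nr1d1 (minus strand) by 1075 bases, and Rara follows on the plus strand at chr11:98927818-98974942. On chromosome 14 Rarb (minus strand, chr14:16430839-16819156), Thrb (plus strand) and Nr1d2 (minus strand) lie in a row without overlap. The chromosome 11 gene was the higher in 2 of the 3 pairs in both libraries. Nr1d1 exceeded Nr1d2, and Rara exceeded Rarb by 1.19-fold in replicate 1 and 2.17-fold in replicate 2, while the Thra and Thrb order differed between libraries. All 6 genes were detected.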

How the data were processed

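Adrenal total RNA was measured in 2 libraries. The authors used mm10 with GENCODE M21, per notes deposited with the files; the program is not named in the sources used here. The deposited gene table and first transcript table hold expected counts, TPM and the percent of each gene's TPM per transcript. The second deposited transcript table comes from another quantification, with estimated counts and TPM, here summed per gene. TPM covers all features, so ribosomal and other RNA classes shift it. The members and gene lists were chosen with earlier results of these data known. All 45 members are named, lists by up to 4 genes by mean TPM and any gene 2-fold apart. Cyp26a1, Cyp26b1, Cyp26c1, Cyp4a10, Cyp4a14, Fgf15, Slc51a and Slc51b were named after their values were seen. Some list genes that this rule names are not reported here. Ratios used TMM factors of rounded expected counts (R 4.3.3, edgeR 4.0.16), a prior of 1 count and a minimum mean of 100. The 2-fold rule was tried on simulated data with counting noise only and with the same TMM factors. That trial therefore covered neither the scaling nor the wider spread between these libraries. Intervals are exact Clopper-Pearson at 95%, for counting error only, and reads lack molecular identifiers. Python 3.11.15, numpy 2.4.6, scipy 1.17.1, pandas 2.3.3, Biopython 1.88 and matplotlib 3.10.9 were used. Alternatives were DESeq2 1.42.0 size factors, spike-in or total counts, other thresholds, coding TPM and the second quantification.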

Additional observations from a re-analysis of the deposited data

How the results depend on the processing

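The count of 32 members detected in both libraries was 34 with the second quantification, at 0.5 TPM and on coding TPM. It was 32 without replicate 1, 32 without replicate 2 and 21 at 5 TPM. For these settings the share of all coding genes was not counted. The 1 member that lay 2-fold apart, Nr3c2, was also the 1 member under DESeq2 size factors, spike-in scaling and the second quantification. Scaled by total counts 13 members lay 2-fold apart, all lower in replicate 1, beside 35% of all genes, whose median ratio was then -0.91 (-0.15 under spike-in scaling). A minimum mean count of 10 gave 2 members (Nr3c2 and Hnf4a, beside 5.22% of genes) and no minimum gave 8, beside 60.6%, where genes at 0 in both libraries pass through the prior count. Coding TPM, added after the data were seen, gave 1 member, Esrrg. Against TMM the sign of the ratio differed for 14 of 32 members under total counts, 5 under spike-in scaling, 2 under the second quantification and 0 under DESeq2 size factors. The count of 25 members with the same leading transcript was 24 in the second transcript table. Without either replicate the TPM of all 45 members stayed within 1 SD of the mean, which holds by construction with 2 libraries, while 39 moved further with the second quantification and 41 on coding TPM, a larger scale. Levels under about 0.1 TPM rest on under 10 counts in replicate 1. No paired analysis was possible because the series has 1 group.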

Other observations

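Some receptor genes share their locus with genes on the opposite strand, and how often all genes do so was not counted. Of the 45 members 19 overlap 30 such genes, among them Thra and Nr1d1, which overlap each other. Of those 30, 9 were detected in both libraries. Most are non-coding, 23 of 30, and 2 of these reached 1 TPM in both libraries in the gene tables, both at COUP-TF genes. In the second quantification 3 did, the third being Gm44249 over Nr2c2, with 2.30 and 5.05 TPM. B130024G19Rik, which overlaps Nr2f2 by 1826 bases, had 1.41 TPM in replicate 1 and 1.87 in replicate 2, and A830082K12Rik, which overlaps Nr2f1 by 1741 bases, had 1.87 and 3.83 TPM. Among the coding neighbours, Top2b overlaps Rarb by 4624 bases and was higher in level, with 20.5 and 32.1 TPM in replicates 1 and 2 beside 3.85 and 4.19 TPM of Rarb. Mrps25 overlaps Nr2c2 by 4770 bases and had 11.7 and 16.0 TPM, and Ocel1 overlaps Nr2f6 by 5239 bases and had 3.94 and 6.82 TPM. Trmt112 overlaps Esrra by 73 bases, with 20 and 35.6 TPM. Antisense transcripts annotated over Rora, Pparg, Hnf4a and Esrrg were listed at 0 in both gene tables, while the second quantification put Gm36388 over Esrrg at 0.18 and 0.17 TPM.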
